A study of Mus musculus with 48 samples.

Results

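The genes described here encode antibacterial and related proteins of the gut epithelium, *Lypd8*, *Lypd8l*, *Reg3b*, *Reg3g* and *Reg4*. They were taken by symbol from the table of read counts, 5 of 55401 genes, and all 5 passed the filter on low counts. *Lypd8l* stands in the GENCODE annotation under an older name, 2210407C18Rik, and was matched by its Ensembl identifier. Colon tissue came from male C57BL/6J mice aged 18 to 20 weeks, fed ad libitum, housed singly with a running wheel and killed at CT1, CT5, CT9 (circadian day), CT13, CT17 or CT21 (circadian night) on the second day of constant darkness. Bmal1IEC-/- mice (*Bmal1*fl/fl x Villin CRE/wt) carried floxed *Bmal1* and a Cre driven by the Villin promoter, which is active in epithelial cells, so that the other cells of the colon keep the gene. Control littermates (*Bmal1*fl/fl x Villin wt/wt) carried the floxed gene without Cre. There were 4 mice of each genotype at each time, and 46 of the 48 mice were used, 24 control and 22 Bmal1IEC-/-.

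LYPD8 is a small protein of the Ly6/PLAUR family that is anchored to the surface of colonocytes, shed into the lumen and known to bind the flagella of bacteria. REG3B and REG3G are C-type lectins secreted by epithelial cells. REG3G kills Gram-positive bacteria by binding their peptidoglycan, and the transcription of both genes is known to rise with bacterial contact through MyD88 and through interleukin-22 and STAT3. REG4 is a related lectin of deep crypt secretory and enteroendocrine cells.

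The 2 mice left out, SV384 and SV385, were both Bmal1IEC-/- mice at CT1, and the size factors in the study's control rhythm table are those of the other 46. They also stood apart in their markers. The summed normalized count of 7 distal *Hox* genes was 45.9 and 11.7 in them and 65.2 to 124.9 in the other mice, and that of 6 smooth muscle genes was 3428 in SV385 against at least 12165 in the 46. Total counts ran from 3144997 to 4785844 per mouse. Values below are counts divided by DESeq2 size factors (normalized counts), and n is the number of mice. Epithelial markers were present in every mouse (10 genes, summed level 20938 to 34720 in the 46). *Arntl*, the annotated name of *Bmal1*, had means from 26.4 (CT9) to 260.0 normalized counts (CT1) over the day in control mice and from 114 (CT9) to 177 (CT1) in Bmal1IEC-/- mice, counted over the whole gene in all cells of the tissue. Across times it was not called (log2 fold change 0.32 ± 0.17 (SE), adjusted p = 0.251, edgeR with circadian time in the model), whereas *Nr1d1*, a gene that BMAL1 activates, was (log2 fold change -1.49 ± 0.12 (SE), adjusted p = 2.15e-13, edgeR).

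*Lypd8* and *Lypd8l*, and *Reg3b* and *Reg3g*, lie in pairs, and of the transcripts compared, *Reg3b* and *Reg3g* shared the longest run of identical bases. In GRCm38, *Lypd8* (ENSMUSG00000013643) lies on the plus strand of chromosome 11 from 58379043 to 58390728, and *Lypd8l* (ENSMUSG00000037145) on the minus strand from 58608204 to 58616075, 217 kb away. *Reg3b* (ENSMUSG00000071356, plus strand, 78370657 to 78373466) and *Reg3g* (ENSMUSG00000030017, minus strand, 78466269 to 78468872) lie 92.8 kb apart on chromosome 6, with 4 annotated genes between them. *Reg4* (ENSMUSG00000027876) lies on the plus strand of chromosome 3 from 98222156 to 98236748. All 5 are annotated as protein coding. The longest run of identical bases shared by the transcripts was 10 for *Lypd8* and *Lypd8l* and 35 for *Reg3b* and *Reg3g*. None of the 50-base windows of the members' coding transcripts compared occurred in a transcript of another gene.

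The sequence before the RefSeq start is shown for both pairs, because *Reg3b* and *Reg3g* moved together from mouse to mouse and *Lypd8* and *Lypd8l* differed in their response to genotype. The sequences are RefSeq's (GRCm38.p6), 5′ to 3′ on the strand of the gene, up to the base before the RefSeq start, except that *Reg3b* stops 24 bases before it, where exons of another transcript begin. Capitals mark matches on either strand to the STAT motif, TTCNNNGAA. They also mark the TATA box, spelled TATAAA.
Lypd8, chr11:58378854-58379031, plus strand: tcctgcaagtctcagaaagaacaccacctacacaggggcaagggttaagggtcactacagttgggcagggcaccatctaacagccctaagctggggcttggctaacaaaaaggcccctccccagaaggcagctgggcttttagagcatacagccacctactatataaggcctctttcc
Lypd8l, chr11:58613493-58613670, minus strand: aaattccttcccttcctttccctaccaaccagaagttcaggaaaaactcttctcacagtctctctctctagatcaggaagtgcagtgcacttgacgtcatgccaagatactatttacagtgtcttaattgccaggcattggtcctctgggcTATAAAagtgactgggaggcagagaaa
Reg3b, chr6:78370707-78370861, plus strand: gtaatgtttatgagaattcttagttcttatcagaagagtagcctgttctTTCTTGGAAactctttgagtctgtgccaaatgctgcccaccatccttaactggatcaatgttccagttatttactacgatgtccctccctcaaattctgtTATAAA
Reg3g, chr6:78468875-78469052, minus strand: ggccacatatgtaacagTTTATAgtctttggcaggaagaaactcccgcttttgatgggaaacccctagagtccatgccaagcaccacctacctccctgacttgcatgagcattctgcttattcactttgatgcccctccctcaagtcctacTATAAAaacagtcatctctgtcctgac

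Over 250 bases before the start, *Reg3b* and *Reg3g* were identical at 68.9% of aligned positions, with a longest shared run of 20 bases. *Lypd8* and *Lypd8l* were identical at 45.6%, below the pairs of a *Lypd8* and a *Reg* gene (48.2% to 52.4%). The STAT motif was found before *Reg3b* alone among the 5 genes, 129 to 121 bases before the start, and 7.01% of 32817 RefSeq promoter windows of this length hold it. TATAAA, the only spelling of the TATA box searched for, was found before *Lypd8l*, *Reg3b* and *Reg3g*, and in 12.4% of all windows. The match 161 to 156 bases before *Reg3g* lies on the opposite strand. Whether other spellings of this box lie before *Lypd8* or *Reg4* was not tested. CACGTG (an E-box, 6.02% of windows), AGGTCA (a RORE core, 14.0%) and TTATGTAA (a D-box, 0.817%) were in none of the 5 windows. This says only that these letters are not within 250 bases. The RefSeq start lies inside the GENCODE gene by 2583 bases for *Lypd8l* and by 228 bases for *Reg3b*, so that the stretches shown for both, with the STAT motif of *Reg3b*, lie within the annotated genes.

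*Lypd8* was by far the most abundant of the 5 genes. In control mice its level per kilobase of exon was 20572 normalized counts, rank 4 among 21847 genes with a coding transcript, and it held 0.547% to 0.824% of all counts of a mouse. *Reg3b* followed with 3618 per kilobase, *Lypd8l* with 1285, *Reg3g* with 618 and *Reg4* with 170.4. The genes also differed in how evenly mice of one group expressed them. On the log2 CPM scale, the standard deviation within genotype and time groups was 0.12 for *Lypd8*, at percentile 7.88 of the genes tested, and 1.03 for *Reg3b* and 0.97 for *Reg3g*, at percentiles 98.9 and 98.8. It was 0.34 for *Lypd8l* and 0.37 for *Reg4*, and 0.23 for the median gene. Among the 5359 genes with a level at least that of *Reg4*, the median was 0.146. In that ranking *Lypd8* stood at percentile 21.8, *Lypd8l* at 98.5 and *Reg4* at 99.01, with *Reg3b* at 99.96 and *Reg3g* at 99.9. Against genes of such levels, *Lypd8l* and *Reg4* were thus also among the most uneven. Mice of the same genotype and time thus differed about 2.05-fold in *Reg3b* at 1 standard deviation, against 1.09-fold in *Lypd8*.

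Loss of *Bmal1* in the epithelium went with lower *Lypd8l* at every circadian time and with a small decrease of *Lypd8*, while *Reg3b*, *Reg3g* and *Reg4* were not called. In a model with circadian time, 2 of the 5 genes had an adjusted p under 0.05, both lower in Bmal1IEC-/- mice, beside 10.5% of the 15073 genes tested (5.72% lower, 4.83% higher). The same 2 were called lower over all 48 mice, as were 5.56% of the 14618 genes tested there. With a fold of 1.5 in addition, 1 of the 5 was lower, beside 0.71% of all genes. The median log2 fold change was -0.20 over the 5 genes and -0.00045 over all genes tested. In bulk tissue, fewer cells of a type and less RNA per cell cannot be told apart.

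**Figure D1:**
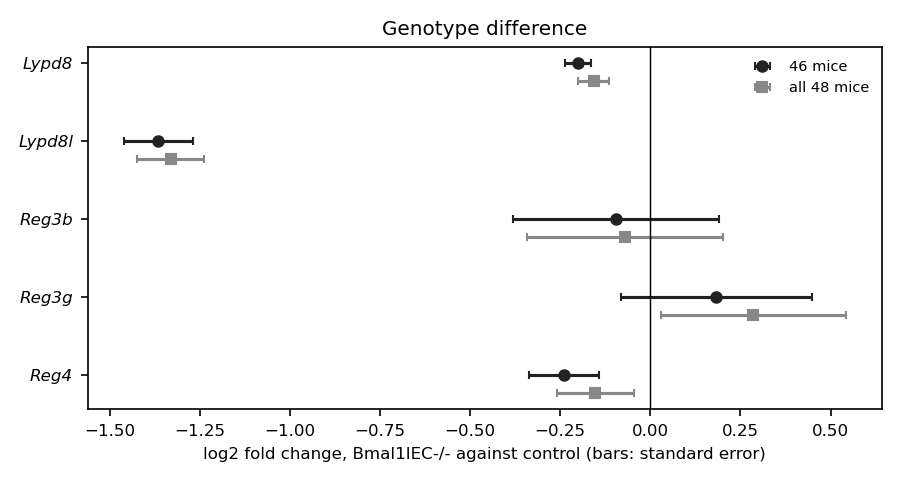
Log2 fold change of the 5 genes between Bmal1IEC-/- and control mice (x axis) with its standard error, from edgeR with circadian time in the model, over 46 mice (circles) and all 48 (squares). *Lypd8l* lies at -1.37 and *Lypd8* at -0.20, and the wide bars of *Reg3b* and *Reg3g* reach across 0 over the 46 mice.

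*Lypd8l* normalized counts ran from 633 over a median of 1254 to 2039 in the 24 control mice, and from 236 over a median of 455 to 894 in the 22 Bmal1IEC-/- mice. All 22 Bmal1IEC-/- mice lay below the control median of their own time, and 21 below every control mouse of that time. Control mice averaged 1313 ± 402 (SD, n = 24), and Bmal1IEC-/- mice averaged 502.5 ± 192 (SD, n = 22). The log2 fold change of *Lypd8l* was -1.37 ± 0.10 (SE) with an adjusted p of 1.69e-15 (edgeR, Benjamini-Hochberg), a fall to 0.388 times the control level. Over all 48 mice it was -1.33 (adjusted p = 9.21e-16, edgeR). The fall was also past a test against a fold of 1.5 itself (adjusted p = 6.72e-09, edgeR's glmTreat).

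At CT1 control mice had 1719, 1365, 1728 and 1242 normalized counts of *Lypd8l* and the 2 Bmal1IEC-/- mice 589.6 and 488. At CT5 the control mice had 1100.5, 1064, 1126 and 1266 and the Bmal1IEC-/- mice 344, 331, 414 and 422. At CT9, where control mice were lowest, they had 1080.0, 697, 688 and 633, against 671, 322, 332 and 363. Only at CT9, where 2.17% of all genes were lower without overlap, did the genotypes overlap, through SV400, the Bmal1IEC-/- mouse with 671, which lay above the control mouse with 633.

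At CT13 control mice had 1332, 1026, 1058 and 893 normalized counts of *Lypd8l* and Bmal1IEC-/- mice 236, 321, 357 and 530.3. At CT17 the control mice had 1515, 1929, 1230.5 and 1478 and the Bmal1IEC-/- mice 894, 391, 502 and 842. At CT21, the control maximum, they had 1849.8, 2038.5, 1698 and 1755, against 832, 638, 737 and 497. All Bmal1IEC-/- mice lay below all control mice at 5 of 6 times, as did 14.1% of all genes at CT1 (2 mice against 4), 1.86% at CT5, 6.3% at CT13, 2.68% at CT17 and 2.36% at CT21.

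*Lypd8l* was called lower at all 6 times, with log2 fold changes between -0.88 at CT9 and -1.60 at CT5 and adjusted p from 3.64e-06 (CT13) to 0.0212 (CT9) in edgeR's quasi-likelihood test. Genes called lower were 0.597% of all genes tested at CT1, 0.139% at CT5, 0.922% at CT9, 2.29% at CT13, 0.69% at CT17 and 0.199% at CT21. The CT1 call rested on 2 Bmal1IEC-/- mice and was lost without either (adjusted p = 0.0745 without SV479 and 0.187 without SV480, edgeR), and the CT9 call was lost without SV401, SV402, SV410 or SV418 (adjusted p 0.0738 to 0.190). The size of the difference was not shown to vary over the day (genotype by time interaction, adjusted p = 0.718 in edgeR, with 0.504% of all genes called).

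*Lypd8* normalized counts ran from 20732 over a median of 26461 to 32427 in control mice and from 18292 over 23242 to 26246 in Bmal1IEC-/- mice. The ranges overlapped widely, although 21 of 22 Bmal1IEC-/- mice lay below the control median of their time. Control mice averaged 26414 ± 2595 (SD, n = 24), and Bmal1IEC-/- mice averaged 23044 ± 2171 (SD, n = 22). The log2 fold change of *Lypd8* was -0.20 ± 0.04 (SE) with an adjusted p of 7.28e-05 (edgeR, Benjamini-Hochberg), a fall to 0.870 times the control level, and it did not pass a test against a fold of 1.5.

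The mean of *Lypd8* was lower in Bmal1IEC-/- mice at 5 of 6 times. At CT17 control mice had 30402, 28081, 26330.0 and 32427 normalized counts and Bmal1IEC-/- mice 24203, 23021, 23399 and 26071. At CT21 the control mice had 28295, 28948, 26910.0 and 28384 and the Bmal1IEC-/- mice 24608, 20565, 26246 and 21915. All Bmal1IEC-/- mice lay below all control mice at these times, as in 2.68% and 2.36% of all genes, whereas at CT1 the means were 24964 and 25352. At a single time *Lypd8* was called at CT9 only (log2 fold change -0.30, adjusted p = 0.0472, edgeR), a call that was lost over all 48 mice (adjusted p = 0.137) and without any of SV400, SV401, SV402, SV412, SV418 or SV420, and the difference was not shown to vary with time (interaction adjusted p = 0.649, edgeR). Over all 48 mice, SV384 (28310 normalized counts) and SV385 (34916) were above the other Bmal1IEC-/- mice, and the log2 fold change of *Lypd8* was -0.16 (adjusted p = 0.0117, edgeR).

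Among 14 markers of surface colonocytes, where *Lypd8* is expressed, 5 were called, all lower, with a median log2 fold change of -0.12. Their summed normalized count ran from 72524 over 83524 to 96602 in control and from 69671 over 78259 to 90632 in Bmal1IEC-/- mice. The part of these cells in the differences of *Lypd8* and *Lypd8l* was not tested. *Slc26a3*, a chloride and bicarbonate exchanger of these cells, fell by 0.77 on the log2 scale (adjusted p = 1.08e-09, edgeR).

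*Lypd8l* and *Lypd8* did not fall in proportion. The share of *Lypd8l* in the summed counts of the pair, a value free of library size, ran from 2.52% over 4.58% to 7.04% in control mice and from 1.01% over 1.91% to 3.56% in Bmal1IEC-/- mice. The mean was 4.70% ± 1.26 (SD, n = 24) and 2.12% ± 0.753 (SD, n = 22), a difference of -2.57 percentage points (permutation test of 100000 resamples, two-sided, p = 1e-05, the smallest these can give, and 2e-05 adjusted over 2 tests). The shares of SV384 and SV385 lay within the range of the other Bmal1IEC-/- mice. None of the 3 genes tested that lie between *Lypd8* and *Lypd8l* was called. The most abundant of them, 1810065E05Rik, averaged 9677 ± 999.6 (SD, n = 24) in control mice, against 10173 ± 1184 (SD, n = 22) without *Bmal1* (adjusted p = 0.381, edgeR).

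**Figure D2:**
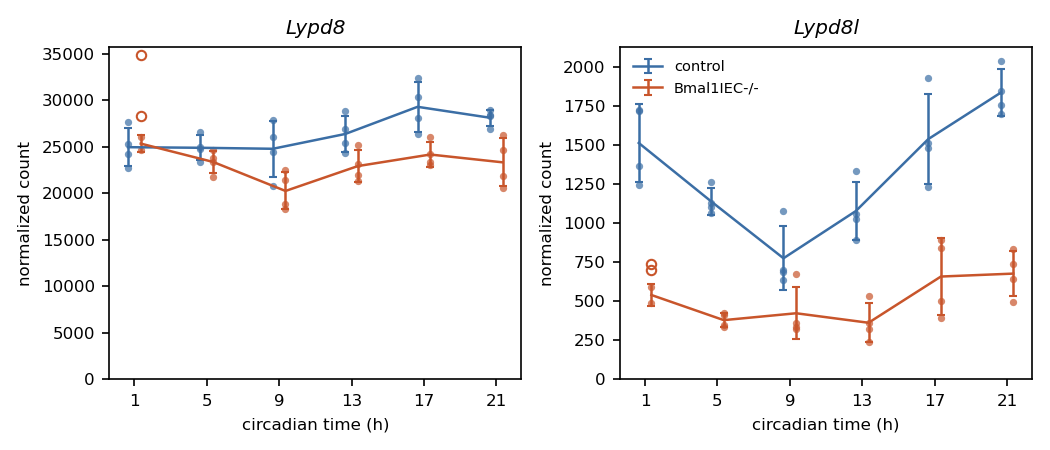
Normalized counts of *Lypd8* (left) and *Lypd8l* (right) by circadian time, 1 point a mouse, with the mean and SD of each group as lines and bars. Open circles are SV384 and SV385, which are outside the means. Control mice have their lowest *Lypd8l* mean, 774, at CT9 and their highest, 1835, at CT21, and the Bmal1IEC-/- means stay between 361 and 676.

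*Lypd8l* varied over the day in control mice. The control means were ordered CT21, CT17, CT1, CT5, CT13 and CT9, from 1835 ± 149 (SD, n = 4) to 774 ± 206 (SD, n = 4), a 2.37-fold range. Neighbours in this order overlapped in their ranges throughout, in either genotype. JTK_cycle, a rank test against 24 h cosines whose p is adjusted over the phases tried within a gene and not over genes, gave an adjusted p of 6.22e-07 (exact null distribution) and a peak at CT22 in control mice. Adjusted by Benjamini-Hochberg over all genes as well, it was 8.35e-05 (JTK_cycle). In Bmal1IEC-/- mice the means ran from 676 ± 143 (SD, n = 4) at CT21 to 361 ± 124 (SD, n = 4) at CT13, with the same peak at CT22 and an adjusted p of 0.0261 (JTK_cycle, exact null distribution), which rose to 0.056 without SV402, SV444 or SV470 and in JTK_cycle did not pass once adjusted over genes (0.226). A 24 h cosine fitted in edgeR, also adjusted over genes, did pass in these mice (adjusted p = 0.00966).

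In control mice 24.1% of the 32471 genes with at least 1 count passed JTK_cycle under the adjustment within genes, and 14.2% in Bmal1IEC-/- mice, beside 3 of the 5 genes in control mice and 2 of 5 in Bmal1IEC-/- mice. Many of these 32471 genes fail the filter on low counts, which kept 15073 and all 5 genes. In JTK_cycle adjusted over genes, *Lypd8* and *Lypd8l* passed in control mice and *Reg4* in Bmal1IEC-/- mice. The share of all genes that passed this second adjustment was not counted. After a filter on low counts, the cosine fitted in edgeR, adjusted over genes, called 7216 of 14221 genes in control mice and 3380 of 14645 in Bmal1IEC-/- mice. It likewise called 3 of the 5 genes in control mice and 2 of 5 in Bmal1IEC-/- mice. A fitted cosine had an amplitude of 37.5% of the mean level of *Lypd8l* in control and 32.5% in Bmal1IEC-/- mice, around mean levels of 1313 and 508. A change of rhythm between genotypes was not called for any of the 5 genes (adjusted p 0.636 to 0.920 in edgeR, 0.935% of all genes called).

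*Lypd8* was rhythmic in control mice with a shallow course (JTK_cycle adjusted p = 0.00685, exact null distribution, peak at CT18, and 0.0443 adjusted over genes). Its control mean was highest at CT17, 29310.0 ± 2664.5 (SD, n = 4), and lowest at CT9, 24792 ± 3042 (SD, n = 4), a 1.18-fold range. It was higher at night than in the day in control mice (log2 difference 0.16, standard error 0.05, adjusted p = 0.0101, edgeR), as were 18.6% of all genes. In Bmal1IEC-/- mice the rhythm was not called (adjusted p = 0.0798 by JTK_cycle, exact null distribution), and under the adjustment within genes it passed over all 48 mice (adjusted p = 0.0302) and without SV445, SV450 or SV471. Adjusted over genes, p was 0.464 over the 46 mice and 0.255 over all 48 (JTK_cycle). The difference between night and day was 0.06 in these mice, in which none of the 5 genes was called at night against day (adjusted p 0.154 to 0.909 in edgeR, with 14.8% of all genes called), and that it differed between genotypes was not shown (adjusted p = 0.731, edgeR, with 0.0531% of all genes called).

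*Reg3b* differed more between mice of one group than between genotypes. Its normalized counts ran from 785 over a median of 2553.5 to 7746 in control mice and from 675 over 2109 to 13094 in Bmal1IEC-/- mice. The highest value belonged to SV477, a Bmal1IEC-/- mouse at CT5, whose 3 fellows had 3137.5, 1005 and 2436.5. The mean was 3115 ± 1889.7 (SD, n = 24) and 3126 ± 2776 (SD, n = 22), and *Reg3b* was not called (log2 fold change -0.10, standard error 0.29, adjusted p = 0.890, edgeR). The 95% interval of the ratio of Bmal1IEC-/- to control mice ran from 0.634 to 1.38.

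*Reg3g* behaved alike at a lower level. Its normalized counts ran from 109.8 over a median of 408 to 1125 in control mice and from 149 over 439 to 2945 in Bmal1IEC-/- mice, again with SV477 highest. The mean was 476 ± 274 (SD, n = 24) and 583 ± 585 (SD, n = 22), with a log2 fold change of 0.18 ± 0.27 (SE, adjusted p = 0.743, edgeR), with a 95% interval of the ratio from 0.791 to 1.63. Without SV477 the log2 fold change was -0.05. Over all 48 mice it was 0.29 (adjusted p = 0.513, edgeR). SV384 and SV385 had 963 and 1011, above all but 2 of the 22 Bmal1IEC-/- mice.

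Neither *Reg3b* nor *Reg3g* was rhythmic by JTK_cycle in either genotype (adjusted p 0.691 to 1.0, exact null distribution). Control means of *Reg3b* ran from 2439.9 ± 1709 (SD, n = 4) at CT5 to 3830.1 ± 1801 (SD, n = 4) at CT17, and those of *Reg3g* from 404 ± 182 (SD, n = 4) at CT21 to 559 ± 378 (SD, n = 4) at CT9. The genotypes overlapped in both genes at 6 of 6 times, and at no time was either called. At CT17 *Reg3b* had 5011.5, 5672, 1887 and 2749.5 normalized counts in control mice and 2343, 1874, 949 and 1826 in Bmal1IEC-/- mice, a log2 difference of -1.13 (standard error 0.66, adjusted p = 0.759, edgeR).

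**Figure D3:**
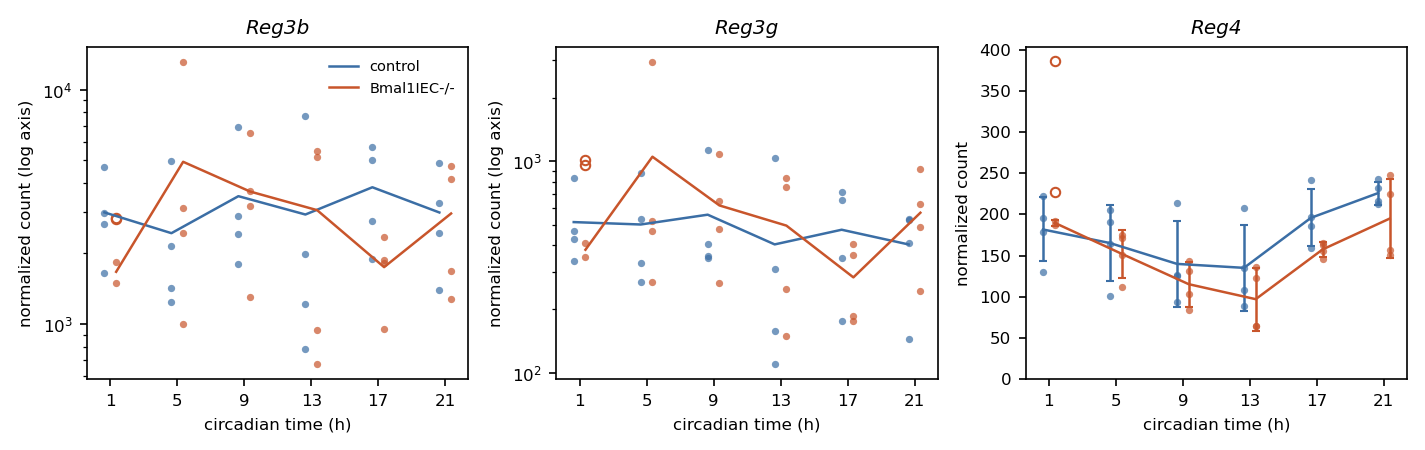
Normalized counts of *Reg3b* and *Reg3g* (log axes) and *Reg4* (linear axis) by circadian time, 1 point a mouse, with lines through the means of each group and SD bars for *Reg4*. Open circles are SV384 and SV385. Mice of one group are up to an order of magnitude apart in *Reg3b* and *Reg3g*, and the *Reg4* mean is lowest at CT13 in both genotypes.

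*Reg3b* and *Reg3g* rose and fell together from mouse to mouse. Of 4 relations between the pairs, Pearson's r of log2 CPM was 0.91 in control mice (Spearman's rho 0.90, n = 24) and 0.93 in Bmal1IEC-/- mice (rho 0.90, n = 22), each with a permutation p of 1e-05, the smallest 100000 resamples can give (2e-05 adjusted over the 4). Taken as deviations from the mean of each genotype and time group, r was 0.96 and 0.94, and without the 2 mice farthest from the median of *Reg3b* it was 0.87 and 0.89. *Lypd8* and *Lypd8l* were less tightly related, with r = 0.48 in control (rho 0.47, permutation p = 0.0173 and 0.0204, adjusted p = 0.0231 and 0.0272) and 0.30 in Bmal1IEC-/- mice (rho 0.42, permutation p = 0.175 and 0.0524, adjusted p = 0.175 and 0.0524), and in control mice the relation no longer passed without 2 mice (r = 0.36) or on deviations from group means (r = 0.34).

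The balance of the pair was slightly shifted. *Reg3b* counts per *Reg3g* count ran from 3.76 to 10.7 in control and from 3.45 to 10.7 in Bmal1IEC-/- mice. The mean was 6.72 in the 24 control and 5.49 in the 22 Bmal1IEC-/- mice. On the log2 scale the medians were 2.68 and 2.31, the SD 0.38 and 0.39, and the means differed by -0.30 (permutation test of 100000 resamples, two-sided, p = 0.0126, also 0.0126 adjusted over 2 tests). The ranges overlapped almost entirely. SV384 and SV385 had ratios of 2.95 and 2.78, below all 46 other mice.

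**Figure D4:**
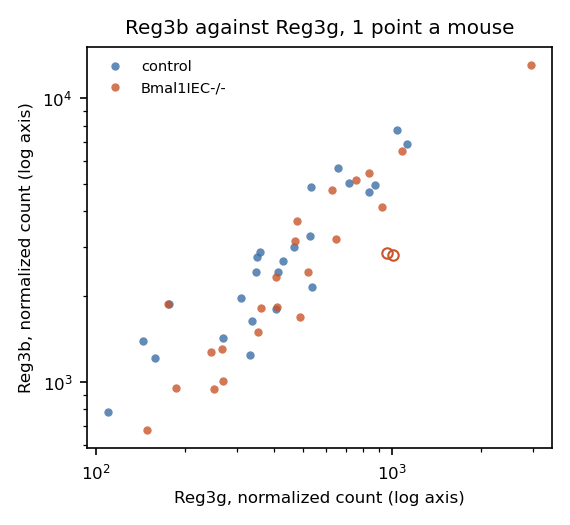
Normalized counts of *Reg3b* against *Reg3g* on log axes, 1 point a mouse, with SV384 and SV385 as open circles. The points of both genotypes follow 1 band, with r = 0.91 in control and 0.93 in Bmal1IEC-/- mice, and SV384 and SV385 lie below it.

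*Reg4* had its lowest mean at CT13 in both genotypes. Control means ran from 226 ± 14.1 (SD, n = 4) at CT21 to 135 ± 52.2 (SD, n = 4) at CT13, with an adjusted p of 0.0178 and a peak at CT20 (JTK_cycle, exact null distribution), which became 0.0571 without SV441 and in JTK_cycle did not pass once adjusted over genes (0.0932). The cosine fitted in edgeR, adjusted over genes, did pass in control mice (adjusted p = 0.0116). Bmal1IEC-/- means ran from 195 ± 48.4 (SD, n = 4) at CT21 to 97.1 ± 38.3 (SD, n = 4) at CT13, with an adjusted p of 7.53e-05 and a peak at CT0 (JTK_cycle, exact null distribution), or 0.00849 adjusted over genes. Over all times *Reg4* averaged 174 ± 49.0 (SD, n = 24) in control mice, against 148 ± 45.7 (SD, n = 22) in Bmal1IEC-/- mice, with ranges of 89.2 to 243 and 64.2 to 247, and was not called between genotypes (log2 fold change -0.24, standard error 0.10, adjusted p = 0.110, edgeR). SV384 had 387, the highest value of all 48 mice.

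Relatives and companions of the 5 genes moved in both directions. Of the other *Reg* genes, 2 of 4 were tested, and both lie between *Reg3b* and *Reg3g*. *Reg3a* fell by 0.74 on the log2 scale (adjusted p = 0.00167, edgeR), from 20.8 ± 9.49 (SD, n = 24) to 11.6 ± 5.49 (SD, n = 22) normalized counts. *Reg1* rose by 0.84 (adjusted p = 0.0248, edgeR), from 3.31 to 6.17 normalized counts, near the floor of 3 counts that a count of 0 allows. Of 21 other Ly6/PLAUR genes 8 were tested, and *Ly6e* was the only call (log2 fold change -0.20, adjusted p = 0.0063, edgeR).

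A list of 33 other genes of antibacterial defence held mainly secreted proteins. It also held *Pigr*, *Nox1*, *Duox2*, *Duoxa2* and *Nos2*, which do not encode secreted antibacterial proteins. Of the 33 genes 23 were tested, and their median log2 fold change was 0.08. Higher calls numbered 9, *Pigr* and *Nox1* among them, and lower calls 2, *Duox2* among them. Of all genes tested, 4.83% were called higher and 5.72% lower. *Zg16*, a lectin of goblet cells that binds Gram-positive bacteria, rose by 0.70 on the log2 scale (adjusted p = 1.04e-09), *Ccl28*, a chemokine with antimicrobial activity, by 0.63 (adjusted p = 5.14e-09), and *Saa3*, an acute phase protein, by 1.41 (adjusted p = 2.94e-08, all edgeR). *Retnlb*, an antibacterial goblet cell protein, was also called higher.

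Among 13 tested genes of the interleukin-22 and STAT3 axis, which acts on *Reg3b* and *Reg3g*, 4 were called higher and 1 lower, with a median of -0.04. *Nfil3*, a clock repressor, rose by 1.04 on the log2 scale (adjusted p = 7.08e-07), while *Il1b*, an inflammatory cytokine, fell by 0.59 (adjusted p = 0.0315, both edgeR). *Stat3* itself (log2 fold change -0.04, adjusted p = 0.633) and the receptor subunit *Il22ra1* (0.12, adjusted p = 0.250) were not called in edgeR. *Il22* averaged 0.251 normalized counts in control mice and did not pass the filter. Of 14 tested genes of microbe sensing 1 was called, and it was higher.

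The genes whose levels followed each member most closely were named by Pearson's r of log2 CPM over the 46 mice. Both genotypes and all times were pooled, so that differences of genotype and time enter into r. *Lypd8l* was followed by *Iyd* (r = 0.86), an iodotyrosine deiodinase, *Cd24a* (0.81), a surface glycoprotein, and *Gm44250* (0.80). *Lypd8* was followed by *Ephx2* (0.74), *Aplp1* (0.73) and *Irf7* (0.70), and *Reg4* by *Slfn9* (0.79), *Uhrf1* (0.79) and *Wdhd1* (0.78). *Reg3b* was followed by *Capg*, *Iqgap2* and *1700066B19Rik*, each at r = 0.51, and *Reg3g* by *Dkc1* (0.60), *Macc1* (0.55) and *Kif18a* (0.55), all far below the r of 0.91 between *Reg3b* and *Reg3g*.

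On deviations from the group means, which take out genotype and time, *Slfn9* was again closest to *Reg4* and *Dkc1* again among the 3 closest to *Reg3g*. *Lypd8* was then followed by *Oas1a* (r = 0.68), *B2m* (0.63) and *Isg15* (0.61), and *Lypd8l* by *Mycbp* (0.73), *Gsta4* (0.69) and *Mdm1* (0.65). *Reg4* was followed by *Slfn9* (0.73), *Pbdc1* (0.71) and *Prim1* (0.70), *Reg3b* by *Dkc1* (0.68) and *Uhrf1* (0.64), and *Reg3g* by *Il18* (0.64), *Dkc1* (0.64) and *Ssr2* (0.63).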

How the data were processed

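Per the labels and the study's methods, colon RNA was made into TruSeq Stranded mRNA libraries, and the authors trimmed reads (Trimmomatic 0.39), aligned them to mm10 (STAR 2.7.5c) and deposited raw counts of reads per gene from featureCounts 1.4.6. The deposited table was used as it is, with 0 columns left unused. Nothing labels a sequencing batch. Each mouse is 1 sample, mice being numbered SV, and pairs of mice in a group differed beyond counting error (chi-square per gene 2.01 to 16.3).

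Counts were tested with edgeR 4.0.16 (TMM, filterByExpr, quasi-likelihood F test) and DESeq2 1.42.0, with p adjusted by Benjamini-Hochberg over all genes tested and called under 0.05. Rhythms were tested with an own JTK_cycle (24 h, 12 phases) in each genotype, called where p adjusted over phases within a gene was under 0.05. The p adjusted over genes is given beside it. JTK_cycle and the edgeR fits of the genotype difference, of the difference at CT9 and of the change of rhythm were tested on simulated data. The other steps were not. Alternatives were all 48 mice, other normalizations, filters, models and tools, and leaving out each mouse or time. Genes outside the 5 were named where called with a fold over 1.5 (at most 4 per list) or as the 3 closest by r. Some genes that this rule names are not reported here. *Stat3*, *Il22ra1*, *Il22*, *Ly6e* and 1810065E05Rik were chosen after their values were seen. *Pigr*, *Nox1*, *Duox2*, *Duoxa2* and *Nos2* were named outside this rule, to describe the list that holds them. The 5 genes and all lists were chosen with earlier results of these data known.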

Additional observations from a re-analysis of the deposited data

Results flagged for a closer look

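In the 60 groups of 4 mice formed by the 5 genes, 4 held a mouse far from the other 3 by Dixon's test at the 95% level, which chance gives in about 1 group in 20. *Lypd8l* was at 1080.0 normalized counts in control mouse SV401 at CT9, where the next mouse had 697, and at 670.9 in Bmal1IEC-/- mouse SV400 at CT9, where the next had 363. *Reg3g* was at 1125 in SV401, where the next control mouse at CT9 had 405, and at 2945 in SV477, where the next Bmal1IEC-/- mouse at CT5 had 519.6.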

How the results depend on the processing

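The direction and call of *Lypd8l* held under all alternatives of the genotype difference (log2 fold change -1.46 to -1.31), and without each mouse it stayed between -1.42 and -1.34. *Lypd8* stayed between -0.21 and -0.19 without each mouse and was no longer called only against a fold of 1.5 itself (-0.20, adjusted p = 1.0, edgeR's glmTreat). *Reg3b* turned to 0.0015 with genotype alone, to 0.0048 without CT1 and to 0.14 without CT17, and ranged from -0.30 to 0.075 without each mouse, the latter without SV396. *Reg3g* turned to -0.010 without CT5 and ranged from -0.054 to 0.33 without each mouse. *Reg4* was called with no filter on low counts (-0.23, adjusted p = 0.0349, edgeR) and ranged from -0.27 to -0.19 without each mouse. Genes called numbered 1590, 807 with genotype alone, 53 against a fold of 1.5 and 1441 to 1626 without each mouse. Over all 48 mice, night differences in Bmal1IEC-/- mice turned to -0.036 for *Lypd8* and -0.20 for *Reg4*, the night difference between genotypes to -0.13 for *Lypd8l* and the CT1 difference of *Reg3g* to 0.39, none of them called, and the rhythm of *Lypd8* in Bmal1IEC-/- mice passed (p adjusted within genes 0.0302, JTK_cycle, exact null distribution). For *Lypd8* and *Lypd8l*, r was 0.34 on deviations and 0.36 without 2 mice in control mice, and in Bmal1IEC-/- mice it passed at 0.42 over all 48 mice and 0.50 without 2. The share of *Lypd8l* differed by -2.67 to -2.47 points and the log2 ratio of *Reg3b* to *Reg3g* by -0.35 to -0.27 without each mouse. Leaving out 1 mouse also turned values that were not called. These were the night difference of *Reg3b* in control mice (-0.075 to 0.31) and of *Reg4* in Bmal1IEC-/- mice (-0.052 to 0.12), its difference between genotypes for *Lypd8l* (-0.056 to 0.12) and *Reg3g* (-0.59 to 0.14), and the genotype difference of *Lypd8* at CT1 (-0.014 to 0.084), of *Reg3b* at CT5 (-0.15 to 1.61), CT9 (-0.37 to 0.63), CT13 (-0.37 to 1.21) and CT21 (-0.34 to 0.32), of *Reg3g* at CT5 (-0.26 to 1.48), CT9 (-0.28 to 0.75) and CT13 (-0.078 to 1.38), and of *Reg4* at CT1 (-0.073 to 0.18), CT5 (-0.30 to 0.0041) and CT9 (-0.43 to 0.0098). *Lypd8l* ranged from -1.63 to -1.36 at CT1 and from -1.20 to -0.67 at CT9, and *Lypd8* from -0.37 to -0.23 at CT9, each with lost calls. The p of JTK_cycle adjusted within genes (exact null distribution) ranged from 0.00283 to 0.0571 for *Reg4* in control mice and, in Bmal1IEC-/- mice, from 0.00983 to 0.229 for *Lypd8* and from 0.00355 to 0.056 for *Lypd8l*. Genes called in the interaction numbered 76, 582 over 48 mice and 208 in DESeq2, in the change of rhythm 141 and 281 over 48 mice, in genotype by period 8 and 20 over 48 mice or in DESeq2, and at CT1 183, 3616 over 48 mice and 369 in DESeq2. The causes were not tested. No paired analysis was possible because each mouse number names 1 mouse and is shared by no other group.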

Other observations

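Markers of other cell types bear on the 5 genes as values only. Of 10 goblet cell markers 2 were called higher and 2 lower in Bmal1IEC-/- mice, and *Clca1*, a secreted goblet cell protein, fell by 0.62 on the log2 scale (adjusted p = 8.57e-06, edgeR). Of 12 tested genes of deep crypt secretory and enteroendocrine cells, which express *Reg4*, 1 was called higher and 1 lower, and the summed normalized count of all 13 in the list ran from 7909 to 10286 in control and from 7984 to 10395 in Bmal1IEC-/- mice.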
